A study of Mus musculus with 10 samples.

Results

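Glycolysis and hypoxia response genes were followed across sorted lineages of the adult mouse prostate. The set holds 38 genes, chosen by name with earlier results of these data known. It has 18 glycolytic enzymes and 4 genes of pyruvate dehydrogenase and its kinases. A further 7 genes belong to the hypoxia-inducible factor (HIF) subunits and their oxygen sensors, and 9 are transcripts that HIF is known to raise. All 38 were found by their mm10 locus among the 24589 genes of the data, and all 38 passed the filter on low values, 1 FPKM or more in at least 2 libraries, which 12483 genes passed. RNA came from C57BL/6 mice aged 8 to 12 weeks, with no transgene or treatment named in the labels, and was sequenced in 10 libraries of 4 populations gated by lineage markers (Lin), CD24, CD49f and, for luminal cells, Sca-1. Stromal cells (Lin-, CD24-, CD49f-) gave 2 libraries and basal cells (Lin-, CD24 low, CD49f high) gave 2. Luminal cells (Lin-, CD24 high, CD49f low) gave 3 Sca-1+ and 3 Sca-1- libraries. Levels are FPKM, fragments scaled to transcript length and to the mapped fragments of the library, summed over the transcripts of a gene. Separate animals are not named as the source of the libraries within a group, so a p-value speaks of the spread among the libraries, which may be technical. A protocol shared by all samples also describes culture of dissociated cells, and does not say whether the sorted cells were cultured before their RNA was taken.

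Glycolysis splits glucose into pyruvate. Lactate dehydrogenase can turn that pyruvate into lactate, or pyruvate dehydrogenase can pass it to the mitochondria, and pyruvate dehydrogenase kinases switch the dehydrogenase off. HIF is a pair of an alpha subunit (HIF-1 alpha from Hif1a, HIF-2 alpha from Epas1) and ARNT. With oxygen present, prolyl hydroxylases of the Egln family mark the alpha subunit, the VHL protein binds the mark and the subunit is degraded, so HIF activity is set largely at the protein level, which RNA does not measure. HIF raises transcripts of many glycolytic enzymes and of its own hydroxylase Egln3. Secretory luminal cells of the prostate are known for making and secreting citrate, whereas basal cells lie beneath them on the basement membrane.

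Depth per library, worked out from the spacing of the lowest FPKM values, was 20.4 to 27.3 M fragments, and each library held 9835 to 11339 genes at 1 FPKM or more. Markers of the sorted lineages followed the gates for the most part. The 5 basal markers (such as Krt5 and Trp63) summed to 4766 and 6633 FPKM in basal libraries and to at most 465 FPKM in any other library. The 5 secretory luminal markers (such as Pbsn) summed to 136073 to 167337 FPKM behind the Sca-1- luminal gate, and to 2338 to 19644 FPKM in the other 7 libraries. Sca-1+ luminal replicates 1, 2 and 3 differed in these sums, at 11289, 19644 and 3546 FPKM, with Spink1 at 7848, 13625 and 7.96. Their basal marker sums were 132, 465 and 41.5 FPKM. Replicate 3 thus departed from the other Sca-1+ luminal libraries in epithelial markers too. The 8 fibroblast markers (such as Col1a1) departed from the gates. They summed to 7325 and 5666 FPKM in stromal libraries, 690 and 506 in basal, 5294, 2713 and 381 in Sca-1+ luminal replicates 1, 2 and 3, and 98.5, 77.2 and 138 in Sca-1- luminal libraries. Dcn was the largest part of each sum, at 655 and 459 FPKM in basal libraries and 233 in Sca-1+ luminal replicate 3. Each other marker was higher in that replicate than in both basal libraries, such as Col1a1 at 22.4 FPKM against 7.16 and 8.77. Sca-1+ luminal replicates 1 and 2 thus carried fibroblast transcripts that luminal cells should lack, and the counts and leading changes of that group are also given with replicate 3 alone. The 5 smooth muscle markers summed to 143 and 281 FPKM in stromal, 97.0 and 202 in basal, 239, 351 and 23.3 in Sca-1+ luminal and 50, 57.7 and 76.9 in Sca-1- luminal libraries. The 6 endothelial markers were low but split the Sca-1+ luminal replicates in the same way, at 26.6, 21.9 and 4.92 FPKM, against 5.35 to 13.1 FPKM in the other 7 libraries. The 6 erythroid markers were higher behind both luminal gates, at 295, 215 and 135 FPKM in Sca-1+ luminal and 287, 214 and 1333 in Sca-1- luminal libraries, than in stromal libraries, at 13.6 and 38.2, or basal libraries, at 7.69 and 74.3. For 8 immediate early and dissociation genes the sums overlapped between the groups, at 3951 and 3313 FPKM in stromal, 6182 and 1977 in basal, 3492 to 5143 in Sca-1+ luminal and 2772 to 5073 in Sca-1- luminal libraries.

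Basal cells most often had the highest mean of these genes and Sca-1- luminal cells the lowest. The group mean was highest in basal libraries for 20 of the 38 genes, in stromal libraries for 11, in Sca-1+ luminal libraries for 3 and in Sca-1- luminal libraries for 4. Over all 12483 genes tested those shares were 22.7%, 25.8%, 16.4% and 35.1%. The mean was lowest in Sca-1- luminal libraries for 27 of the 38, or 71.1%, against 35.4% of all genes tested. Both held at once for 16 of the 38, or 42.1%, against 14.1% of all genes tested. Both basal libraries lay above all 8 other libraries for 13 genes, or 34.2% of the set (Pfkl, Tpi1, Pgk1, Eno1, Pkm, Pdk4, Hif1a, Egln3, Bnip3, Car9, Car12, Adm and Ddit4), against 10.8% of all genes tested, and below all of them for Ldhb, Pdk2 and Egln2, 7.89% of the set against 12.7%. All 3 Sca-1- luminal libraries lay below the other 7 for 15 genes, 39.5% of the set against 17.6% of all genes. They lay above them for Aldoc and Pdk2 alone, 5.26% of the set against 16.6% of all genes. A single library stood out within its group: 19 of the 38 genes, or 50%, had their lowest value in Sca-1- luminal replicate 3, against 15.5% of all genes tested. It is the library with the most erythroid transcripts, at 1333 FPKM. Its basal marker sum was also the lowest of its group, at 17.3 FPKM against 113 and 187 in replicates 1 and 2. The part of either in these values was not tested. In sorted bulk RNA, fewer cells of a type and less RNA per cell cannot be told apart.

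**Figure D1:**
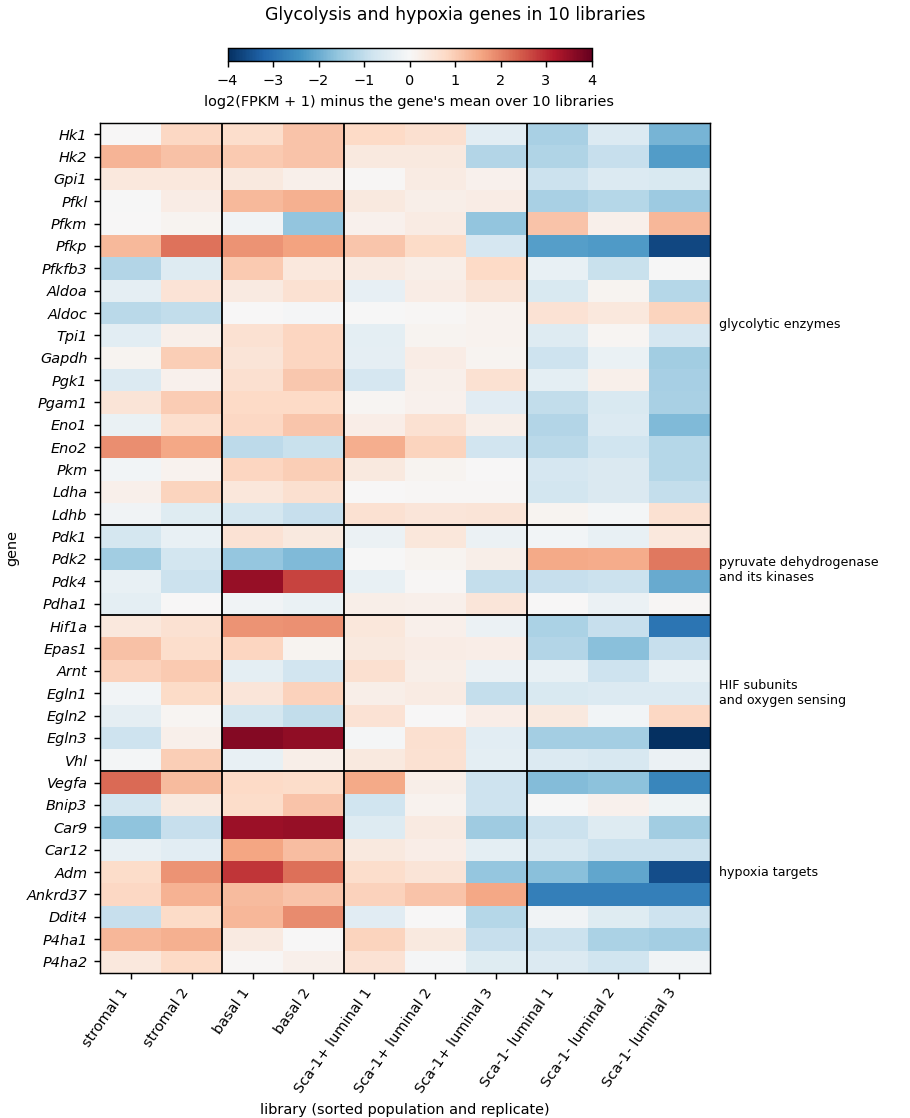
Each row is a gene, grouped by role, and each column a library, with stromal libraries at the left and Sca-1- luminal libraries at the right. Color gives log2(FPKM + 1) minus the mean of the gene over the 10 libraries, so the 2 basal columns are red for Egln3, Car9 and Pdk4 and the 3 Sca-1- luminal columns are blue for most rows and red for Pdk2.

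The oxygen-sensing genes held the widest contrast. Egln3 (chromosome 12, 54178981 to 54203860, mm10), the prolyl hydroxylase that HIF raises, stood at 12.0 and 25.4 FPKM in stromal, 289 and 264 in basal, 21.2, 34.3 and 15.9 in Sca-1+ luminal and 7.94, 7.84 and 0.427 in Sca-1- luminal libraries. Its mean was 276 ± 17.7 FPKM in basal libraries (SD, n = 2) and 5.4 ± 4.31 in Sca-1- luminal libraries (SD, n = 3), and the lowest basal library was far above the highest library of any other group. Egln1, the main HIF hydroxylase of most tissues, stood at 16.7 and 31.3 FPKM in stromal, 25.9 and 34.7 in basal, 21.5, 23.1 and 8.86 in Sca-1+ luminal and 11.4, 12.1 and 12.1 in Sca-1- luminal libraries. Egln2, a family member that HIF does not raise, ran the other way and was lowest in basal libraries, at 10.5 and 14.6 FPKM in stromal, 8.19 and 6.51 in basal, 21.3, 14.1 and 16.7 in Sca-1+ luminal and 18.3, 12.8 and 25.5 in Sca-1- luminal libraries. Of the summed FPKM of the 3 hydroxylases, Egln3 made up 88.0% ± 2.1 in basal libraries (SD, n = 2) and 15.4% ± 12.4 in Sca-1- luminal libraries (SD, n = 3), where Egln2 was the most abundant at 51.6% ± 14.1. The share of Egln3 was 33.1% ± 3.58 in stromal libraries (SD, n = 2) and 39.8% ± 7.54 in Sca-1+ luminal libraries (SD, n = 3).

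Among the HIF subunits, Hif1a (chromosome 12, 73901375 to 73947530) followed the order basal, stromal, Sca-1+ luminal, Sca-1- luminal. It stood at 115 and 131 FPKM in stromal, 300 and 305 in basal, 118, 99.2 and 73.4 in Sca-1+ luminal and 35.1, 44.6 and 10.5 in Sca-1- luminal libraries. The basal libraries did not overlap with any other group, whereas stromal replicate 1 lay below Sca-1+ luminal replicate 1. Epas1, the gene of HIF-2 alpha, was far lower throughout, at 9.22 and 6.33 FPKM in stromal, 7.11 and 3.86 in basal, 4.84, 4.47 and 4.35 in Sca-1+ luminal and 1.01, 0.417 and 1.35 in Sca-1- luminal libraries, and its 3 Sca-1- luminal libraries lay below all others. Arnt, the shared partner, was highest in stromal libraries, at 20.1 and 21.8 FPKM in stromal, 7.47 and 5.54 in basal, 16.3, 12.1 and 8.46 in Sca-1+ luminal and 8.07, 5.34 and 7.99 in Sca-1- luminal libraries. Basal and Sca-1- luminal libraries overlapped for Arnt although they were far apart for Hif1a. Vhl, the gene of the protein that leads marked HIF to degradation, passed the test in no comparison and ranged from 4.95 FPKM in Sca-1- luminal replicate 2 to 17.0 FPKM in stromal replicate 2.

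The 9 HIF targets did not share a single pattern. Adm (chromosome 7, 110627661 to 110629820), which encodes the vessel-dilating peptide adrenomedullin, stood at 96.5 and 203 FPKM in stromal, 421 and 269.6 in basal, 94.8, 82.4 and 18.8 in Sca-1+ luminal and 17.3, 12.7 and 3.96 in Sca-1- luminal libraries, and basal libraries were again above all others. Car9 (chromosome 4, 43506966 to 43513729), the gene of a carbonic anhydrase of the cell surface used as a hypoxia marker, stood at 0.139 and 0.848 FPKM in stromal, 36.5 and 38 in basal, 1.48, 3.55 and 0.3 in Sca-1+ luminal and 0.919, 1.43 and 0.351 in Sca-1- luminal libraries. Basal libraries thus held all but traces of Car9. Car12, a second surface carbonic anhydrase, was scarcer but also highest in basal libraries, at 0.556 and 0.443 FPKM in stromal, 4.75 and 3.48 in basal, 1.49, 1.3 and 0.464 in Sca-1+ luminal and 0.241, 0.0603 and 0.062 in Sca-1- luminal libraries. Ddit4, an inhibitor of mTORC1 signaling, and Bnip3, a mitophagy receptor, were likewise highest in basal cells. Ddit4 stood at 16.0 and 53.1 FPKM in stromal, 79.5 and 116 in basal, 22.2, 31.0 and 13.5 in Sca-1+ luminal and 27.7, 21.7 and 16.8 in Sca-1- luminal libraries, and Bnip3 at 19.3 and 42.9 FPKM in stromal, 54.6 and 73.5 in basal, 18.3, 36 and 18 in Sca-1+ luminal and 32.1, 36.6 and 29.2 in Sca-1- luminal libraries. For both genes the 2 luminal groups overlapped.

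Other HIF targets were highest outside the basal gate. Vegfa (chromosome 17, 46016993 to 46032369), the main growth factor of blood vessels, stood at 500.2 and 248 FPKM in stromal, 179 and 173 in basal, 300.3, 120.4 and 57.6 in Sca-1+ luminal and 30.4, 32.8 and 16.1 in Sca-1- luminal libraries. Stromal replicate 1 and Sca-1+ luminal replicate 1 were the 2 highest libraries, and the Sca-1+ luminal replicates spread widely. Nearly all Vegfa came from 2 transcripts of 3459 and 3327 nt, with group means of 201 and 173 FPKM in stromal, 94.4 and 81.7 in basal, 85.3 and 74.2 in Sca-1+ luminal and 14.5 and 11.1 in Sca-1- luminal libraries. The pair therefore moved in parallel. P4ha1, a subunit of the enzyme that hydroxylates proline in collagen, stood at 45.2 and 47.4 FPKM in stromal, 22.4 and 17.5 in basal, 32.8, 23.1 and 8.59 in Sca-1+ luminal and 9.0, 6.54 and 6.05 in Sca-1- luminal libraries, and P4ha2, its paralog, passed the test in no comparison, with values from 12.4 to 39.1 FPKM. Ankrd37, a small ankyrin repeat gene, stood at 10.7 and 16.3 FPKM in stromal, 14.8 and 13.8 in basal and 11.6, 13.6 and 18.2 in Sca-1+ luminal libraries, while every Sca-1- luminal library listed it at 0. Its locus overlaps that of Ufsp2, which ran the other way, at 7.17 and 13.2 FPKM in stromal, 6.63 and 5.98 in basal, 12.0, 13.9 and 9.48 in Sca-1+ luminal and 42.7, 38.7 and 45.9 in Sca-1- luminal libraries. Reads of the pair may have been divided differently by the estimate, so no fold is given against the zeros and each call of Ankrd37 that involves Sca-1- luminal libraries is uncertain.

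**Figure D2:**
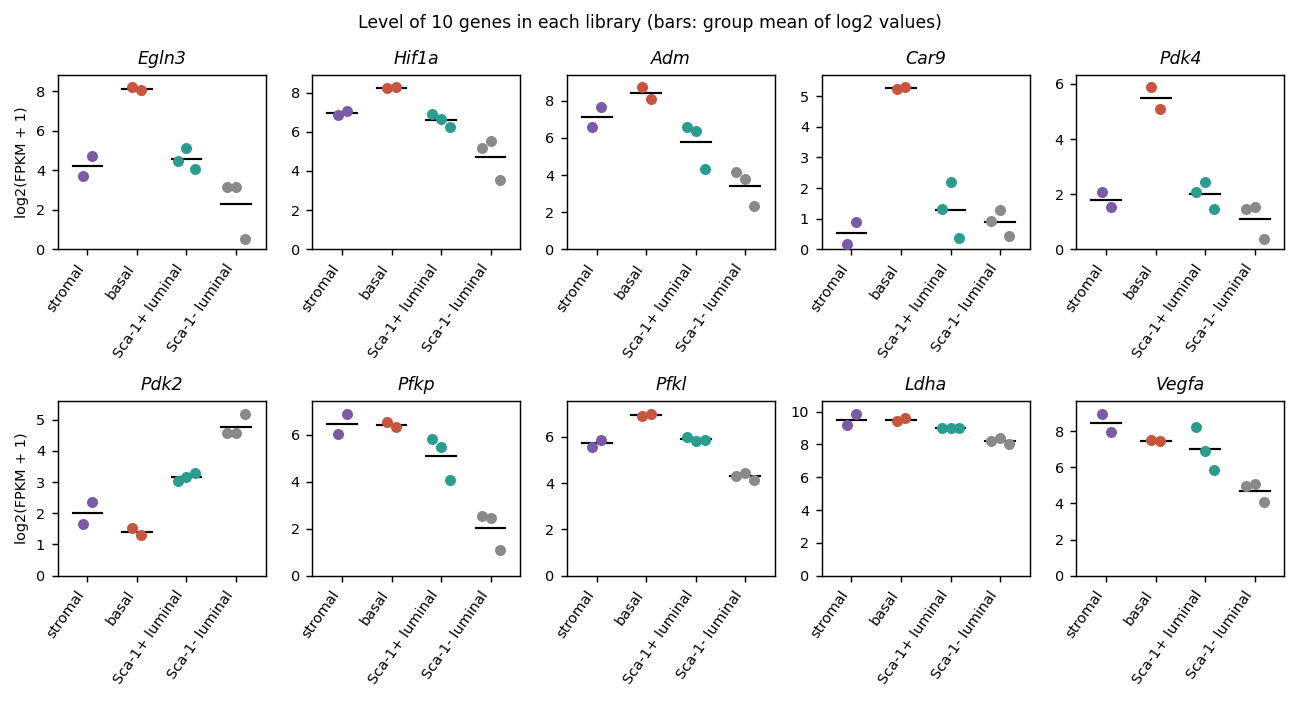
Each point is a library, each bar the group mean of log2 values, and each panel a gene, with log2(FPKM + 1) on the vertical axis from 0. Basal points stand apart at the top for Egln3, Hif1a, Adm, Car9, Pdk4 and Pfkl, Sca-1- luminal points stand at the top for Pdk2, and the highest point of Vegfa and of Ldha is a stromal library.

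Promoter sequence of the members was read for a short motif that HIF binds, ACGTG or GCGTG. Known HIF targets are part of the set by choice, so its share of motifs is no test of HIF action here. Windows of 300 bases, from 250 before to 50 after a transcript start, were taken from RefSeq (GRCm38.p6, the assembly of mm10) for 37 of the 38 genes, which have 53 windows between them. Both motifs were searched on both strands, so that their reverse complements match too. The palindrome made of ACGTG and a preceding C, an E-box that other factors also bind, counts on both strands. ACGTG lay in 49.1% of the 53 windows, against 25% of 12475 windows of the genes tested and 19.6% of all 32851 windows. GCGTG lay in 56.6%, against 50.1% of windows of genes tested and 32.4% of all windows. Mean GC content was 61.1% in the member windows, 60.6% in windows of genes tested and 53.8% in all windows, and windows of 1 gene overlap in part. Car12, Eno2, Gpi1, Tpi1 and Vhl had no match in any of their windows. Of these windows 5 are printed 5′ to 3′ on the strand of the gene with matches in capitals: Egln3 and Car9, the targets with the sharpest basal contrast, Ldha and Pgk1, enzymes whose promoters hold known HIF sites, and Pdk2, the member that fell most in basal against Sca-1- luminal libraries.
Egln3, chr12:54203825-54204124, minus strand: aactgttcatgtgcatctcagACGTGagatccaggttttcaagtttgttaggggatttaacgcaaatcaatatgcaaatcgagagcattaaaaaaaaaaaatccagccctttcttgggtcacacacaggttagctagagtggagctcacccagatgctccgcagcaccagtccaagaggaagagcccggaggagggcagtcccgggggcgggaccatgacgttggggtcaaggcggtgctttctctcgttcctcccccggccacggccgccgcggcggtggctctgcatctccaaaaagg
Ldha, chr7:46845554-46845853, plus strand: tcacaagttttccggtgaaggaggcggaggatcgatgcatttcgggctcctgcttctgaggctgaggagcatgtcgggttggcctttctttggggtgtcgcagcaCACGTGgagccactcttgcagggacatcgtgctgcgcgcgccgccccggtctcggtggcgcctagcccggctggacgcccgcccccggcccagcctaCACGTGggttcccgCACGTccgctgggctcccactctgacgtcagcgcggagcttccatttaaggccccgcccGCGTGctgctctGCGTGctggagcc
Car9, chr4:43506776-43507075, plus strand: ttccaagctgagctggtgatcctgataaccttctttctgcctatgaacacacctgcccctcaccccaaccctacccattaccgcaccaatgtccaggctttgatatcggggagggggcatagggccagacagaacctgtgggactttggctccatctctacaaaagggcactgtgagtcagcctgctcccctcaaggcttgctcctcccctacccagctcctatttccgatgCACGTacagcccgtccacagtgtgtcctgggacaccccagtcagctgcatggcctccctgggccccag
Pgk1, chrX:106186850-106187149, plus strand: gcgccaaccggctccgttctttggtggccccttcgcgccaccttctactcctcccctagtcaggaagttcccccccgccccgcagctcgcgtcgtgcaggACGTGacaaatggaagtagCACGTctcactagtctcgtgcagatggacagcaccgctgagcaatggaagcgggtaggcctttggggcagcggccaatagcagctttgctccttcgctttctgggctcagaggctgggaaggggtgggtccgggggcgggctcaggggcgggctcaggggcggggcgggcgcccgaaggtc
Pdk2, chr11:95041322-95041621, minus strand: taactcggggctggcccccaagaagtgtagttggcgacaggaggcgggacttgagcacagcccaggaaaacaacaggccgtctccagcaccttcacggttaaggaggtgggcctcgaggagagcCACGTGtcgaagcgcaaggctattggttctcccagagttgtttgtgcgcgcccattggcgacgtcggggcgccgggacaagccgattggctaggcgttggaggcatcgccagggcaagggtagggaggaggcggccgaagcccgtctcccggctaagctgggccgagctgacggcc
Ldha held 7 matches in this window, of which 4 belong to 2 copies of the E-box. Egln3 and Car9 held 1 match each, at positions 22 and 233 of the 300, and Pgk1 held 2, at positions 101 and 120. The Pdk2 window held a single E-box, and the level of Pdk2 ran opposite to that of Egln3. A match describes the letters of the window and does not show binding.

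Glycolytic transcripts as a whole were on average most abundant in basal libraries and least in Sca-1- luminal ones. The 18 enzymes summed to 2129 and 3410 FPKM in stromal, 3212 and 3665 in basal, 2055, 2461 and 2366 in Sca-1+ luminal and 1263, 1726 and 984 in Sca-1- luminal libraries. The Sca-1- luminal sums lay below all others. Stromal replicate 1 lay within the Sca-1+ luminal range and stromal replicate 2 within the basal range. Both hexokinases, which trap glucose in the cell, had their lowest mean in Sca-1- luminal libraries. Hk1 stood at 38.2 and 68.1 FPKM in stromal, 61.7 and 84.8 in basal, 66.9, 59.3 and 28.2 in Sca-1+ luminal and 14.9, 25.4 and 9.67 in Sca-1- luminal libraries. Its locus overlaps that of Hk1os, which was highest in Sca-1- luminal libraries, at 5.32, 6.19 and 8.42 FPKM. Hk2, the form that HIF raises, stood at 74.8 and 66.1 FPKM in stromal, 59.5 and 63.8 in basal, 37.3, 38 and 12.1 in Sca-1+ luminal and 11.9, 14.6 and 5.31 in Sca-1- luminal libraries. Stromal and basal libraries lay close together for Hk2, and Sca-1+ luminal replicate 3 lay within the Sca-1- luminal range. Gpi1, the isomerase of the next step, differed by less, at 42.0 and 41.6 FPKM in stromal, 40.6 and 36 in basal, 32.2, 38.7 and 35 in Sca-1+ luminal and 16.7, 20.6 and 19.7 in Sca-1- luminal libraries.

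The phosphofructokinase step, the committed step of glycolysis, changed in the mix of its paralogs as well as in level. Pfkl, the liver form (chromosome 10, 77986947 to 78010083), stood at 46.7 and 58.0 FPKM in stromal, 117 and 127 in basal, 61.9, 55.7 and 57.6 in Sca-1+ luminal and 18.7, 20.9 and 16.4 in Sca-1- luminal libraries, with no overlap between the basal, the 2 middle and the Sca-1- luminal levels. Pfkp, the platelet form (chromosome 13, 6579768 to 6648777), stood at 64.0 and 118 FPKM in stromal, 91.5 and 80.1 in basal, 55.5, 43.5 and 15.6 in Sca-1+ luminal and 4.76, 4.51 and 1.11 in Sca-1- luminal libraries. For Pfkp the stromal and basal libraries overlapped, and Sca-1- luminal libraries were far below all others. Pfkm, the muscle form, was scarce, at 2.0 and 2.23 FPKM in stromal, 1.7 and 0 in basal, 2.33, 2.76 and 0 in Sca-1+ luminal and 5.49, 2.46 and 6.39 in Sca-1- luminal libraries. The 3 paralogs together averaged 146 FPKM in stromal, 209 in basal, 98.3 in Sca-1+ luminal and 26.9 in Sca-1- luminal libraries. Pfkp made up 61.5% ± 6.69 of that sum in stromal (SD, n = 2), 41.1% ± 3.42 in basal (SD, n = 2), 36.8% ± 13.6 behind the Sca-1+ gate (SD, n = 3) and 12.4% ± 6.72 in Sca-1- luminal libraries (SD, n = 3). Pfkfb3, whose product makes the activator of phosphofructokinase, was lowest in stroma, at 9.84 and 15.9 FPKM in stromal, 48.9 and 31.6 in basal, 30.1, 27.6 and 41.0 in Sca-1+ luminal and 18.8, 12.1 and 22.9 in Sca-1- luminal libraries. Pfkp and Pfkm overlap the loci of Pitrm1 and Senp1, and the values of Pfkm listed at 0 may be estimates that failed. Pitrm1 was listed at 26.5 FPKM in stromal replicate 1 and at 0 in stromal replicate 2, the highest library for Pfkp. The stromal level of Pfkp is therefore less certain.

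From aldolase to pyruvate kinase, abundant enzymes were accompanied by minor paralogs with patterns of their own. Aldoa, the main aldolase, passed the test in no comparison and ranged from 218 FPKM in Sca-1- luminal replicate 3 to 729.9 FPKM in basal replicate 2. Aldoc, a minor aldolase better known in brain, was highest in Sca-1- luminal cells, at 0.164 and 0.25 FPKM in stromal, 1.49 and 1.4 in basal, 1.45, 1.52 and 1.73 in Sca-1+ luminal and 2.65, 2.33 and 3.55 in Sca-1- luminal libraries. Tpi1, triose phosphate isomerase, stood at 173 and 266 FPKM in stromal, 349 and 415 in basal, 174, 248 and 255 in Sca-1+ luminal and 161, 240.4 and 144 in Sca-1- luminal libraries. Both basal libraries lay above all others for Tpi1, whereas the other 3 groups overlapped. Gapdh, which yields the NADH of glycolysis and often serves as a loading control, was called higher in basal than in Sca-1- luminal libraries, at 226 and 409 FPKM in stromal, 301 and 376 in basal, 161, 257 and 223 in Sca-1+ luminal and 117, 172 and 79.3 in Sca-1- luminal libraries. Pgk1, the first enzyme of the pathway to yield ATP, stood at 53.7 and 89.7 FPKM in stromal, 125 and 168 in basal, 49.0, 91.9 and 123 in Sca-1+ luminal and 60.9, 92.4 and 31.1 in Sca-1- luminal libraries. Its Sca-1- luminal libraries overlapped with stromal and Sca-1+ luminal ones. Pgam1, phosphoglycerate mutase, stood at 221 and 318 FPKM in stromal, 269 and 273 in basal, 163, 176 and 113 in Sca-1+ luminal and 78.9, 102 and 62.4 in Sca-1- luminal libraries. Eno1, the common enolase, stood at 64.4 and 124 FPKM in stromal, 139 and 168 in basal, 93.9, 118 and 91.7 in Sca-1+ luminal and 33.7, 52.9 and 22.3 in Sca-1- luminal libraries. Eno2, the enolase used as a marker of neurons, was a stromal transcript here, at 12.9 and 10.1 FPKM in stromal, 0.87 and 1.06 in basal, 9.53, 6.11 and 1.23 in Sca-1+ luminal and 0.808, 1.2 and 0.723 in Sca-1- luminal libraries. In Sca-1+ luminal libraries Eno2 was high in replicates 1 and 2, which also held the fibroblast transcripts, and low in replicate 3. Pkm, pyruvate kinase, stood at 154 and 186 FPKM in stromal, 306 and 333 in basal, 220.3, 181 and 171 in Sca-1+ luminal and 104, 113 and 75.2 in Sca-1- luminal libraries. Several of these enzymes (Gapdh, Eno1, Ldha, Pgk1, Pgam1, Tpi1, Aldoa, Pkm) have near copies or processed pseudogenes that can share reads, so their levels are less certain.

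Lactate dehydrogenase was almost wholly Ldha, the form that HIF raises. Ldha (chromosome 7, 46841475 to 46855627) stood at 572 and 936 FPKM in stromal, 682 and 774 in basal, 509, 519 and 511 in Sca-1+ luminal and 297, 331 and 258 in Sca-1- luminal libraries. Its level in basal and stromal libraries overlapped, every Sca-1+ luminal library lay below them, and every Sca-1- luminal library lay below those. Ldhb, the form that favors pyruvate, stood at 3.92 and 2.91 FPKM in stromal, 2.39 and 1.87 in basal, 7.33, 6.68 and 6.88 in Sca-1+ luminal and 4.92, 4.2 and 7.4 in Sca-1- luminal libraries. Ldhb was lowest in basal libraries, and its share of the 2 transcripts was 0.495% ± 0.261 in stromal (SD, n = 2), 0.295% ± 0.0773 in basal (SD, n = 2), 1.34% ± 0.0763 in Sca-1+ luminal and 1.89% ± 0.801 in Sca-1- luminal libraries (SD, n = 3 each).

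The kinases that switch off pyruvate dehydrogenase traded places between basal and Sca-1- luminal cells. Pdk4 (chromosome 6, 5483351 to 5496309), known as the kinase raised by fasting and fatty acids, stood at 3.23 and 1.89 FPKM in stromal, 57.6 and 33.1 in basal, 3.23, 4.44 and 1.73 in Sca-1+ luminal and 1.74, 1.87 and 0.292 in Sca-1- luminal libraries. Pdk2 (chromosome 11, 95026258 to 95041354), the widely expressed kinase, stood at 2.17 and 4.09 FPKM in stromal, 1.88 and 1.46 in basal, 7.29, 8.02 and 8.87 in Sca-1+ luminal and 22.9, 22.7 and 35.6 in Sca-1- luminal libraries. Every basal library was above all others for Pdk4 and below all others for Pdk2, and Sca-1- luminal libraries were the highest for Pdk2. The remaining kinase of the family, Pdk3, is outside the 38 genes and stood at 8.37 and 9.58 FPKM in stromal, 8.6 and 6.64 in basal, 11.3, 8.29 and 9.07 in Sca-1+ luminal and 13.6, 11.6 and 13.5 in Sca-1- luminal libraries. Of the 4 kinases together, Pdk4 made up 76.5% ± 4.09 in basal libraries (SD, n = 2), whereas Pdk2 made up 60.8% ± 5.38 in Sca-1- luminal libraries (SD, n = 3). Pdk3 made up 55.2% ± 0.782 in stromal libraries (SD, n = 2) and 40.8% ± 6.92 in Sca-1+ luminal libraries (SD, n = 3). Pdk1, the kinase best known as a HIF target, stayed at 1.24 to 4.49 FPKM and passed the test in no comparison. Pdha1, a subunit of the dehydrogenase itself, did not pass either, with 35.2 to 65.7 FPKM.

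**Figure D3:**
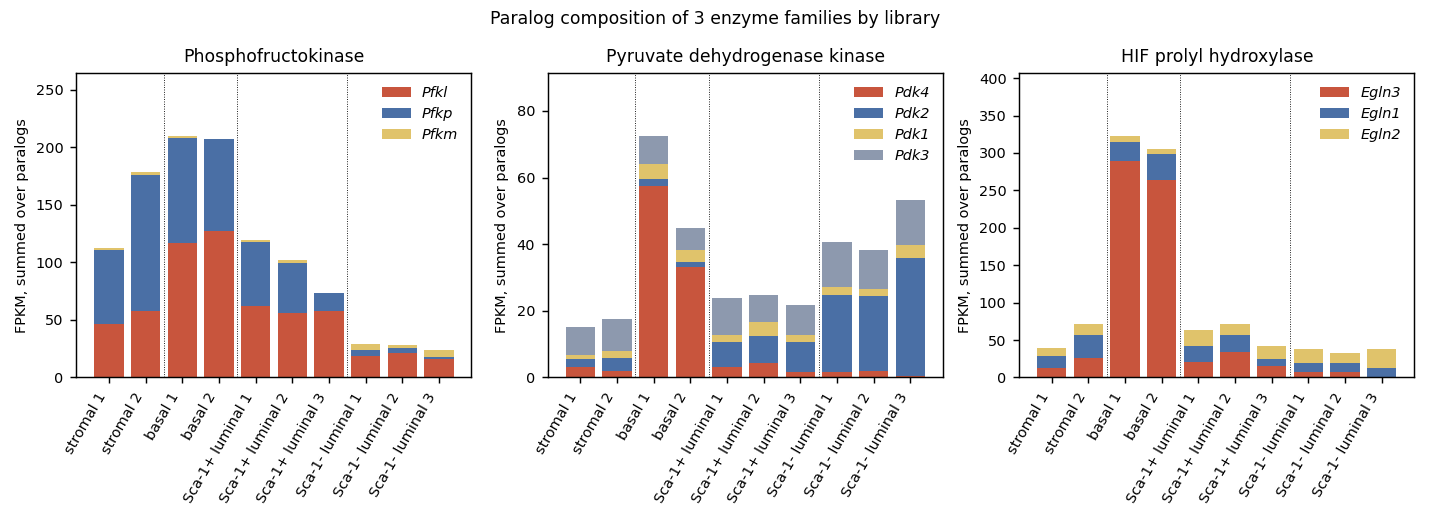
Bars give FPKM in each library, stacked over the paralogs, Pdk3 included, of phosphofructokinase, pyruvate dehydrogenase kinase and HIF prolyl hydroxylase, with stromal libraries at the left. Egln3 and Pdk4 make up most of the 2 basal bars of their families, whereas Pdk2 makes up most of the 3 Sca-1- luminal bars.

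Basal against Sca-1- luminal libraries compares the basal lineage with the main secretory lineage, and gave the most calls. Of the 38 genes 25 were higher and 5 lower in basal libraries, at an adjusted p under 0.05 in limma. Both basal libraries lay above all 3 Sca-1- luminal libraries for 28 genes (73.7%, against 33.3% of all genes tested) and below them for 5 (13.2%, against 36.6%). Of all genes tested 46.2% were called, 20.2% higher and 26% lower, and the median log2 change was 1.36 for the 38 genes and -0.05 for all genes tested. Of the 18 glycolytic enzymes 13 were higher (all but Aldoa and Eno2, not called, and Pfkm, Aldoc and Ldhb, lower), and of the 9 targets 7 were higher. The 9 targets had log2 changes of 0.62 or more, with a median of 2.18. The largest change belonged to Egln3, 5.84 on the scale of log2(FPKM + 1) (SE 0.73, limma, Benjamini-Hochberg adjusted p = 0.00023). Adm followed at 4.97 (SE 0.74, limma adjusted p = 0.000604) and Pfkp at 4.41 (SE 0.58, limma adjusted p = 0.000301). Car9 changed by 4.37 (SE 0.48, limma adjusted p = 0.000124) and Pdk4 by 4.37 (SE 0.44, limma adjusted p = 7.76e-05). A further 2 values were picked after they were seen: Hif1a rose by 3.51 and Pdk2 changed by -3.37 (limma adjusted p = 0.0005 and 3.44e-05). Ldha, given as the marker of the glycolytic genes and not for its rank, was higher by 1.30 (SE 0.31, limma adjusted p = 0.00779). Pfkm, Aldoc, Ldhb, Pdk2 and Egln2 were the 5 lower genes. Pfkm was listed at 0 FPKM in basal replicate 2, and its call was lost with pseudocount 0.1 and with no filter on low values. Leaving out basal replicate 2, which leaves 1 basal library, brought the count to 19, or 50%, against 30.4% of all genes tested, among the losses Ldha (adjusted p = 0.0596). With Sca-1+ luminal replicate 3 alone in its group it was 31, where 51.3% of all genes tested were called. Of the 30 calls 17 held under every alternative run, among them the target Ankrd37, which was listed at 0 FPKM in every Sca-1- luminal library.

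Sca-1+ against Sca-1- luminal libraries compares the 2 luminal gates. Sca-1+ luminal cells had 18 of the 38 genes higher and 2 lower, where 35.2% of all genes tested were called, 21.9% higher and 13.4% lower. The median log2 change was 0.85 for the 38 genes and 0.19 for all genes tested. Every Sca-1+ luminal library lay above every Sca-1- luminal one for 19 genes, 50% of the set against 29.3% of all genes tested, and below for 2, 5.26% against 18.6%. Higher were 10 of 18 glycolytic enzymes, 3 of 7 HIF and oxygen-sensing genes (Hif1a, Epas1, Egln3) and 5 of 9 targets (Vegfa, Car12, Adm, Ankrd37, P4ha1), and lower were Aldoc and Pdk2. The calls of Pfkfb3, P4ha1, Hk2 and Eno2 were lost in 17, 15, 14 and 13 of 19 alternative runs, and that of Aldoc in 13 of 18. Pfkp changed by 3.09 (SE 0.52, limma, Benjamini-Hochberg adjusted p = 0.00265) and Adm by 2.33 (SE 0.66, limma adjusted p = 0.0235). Vegfa changed by 2.30 (SE 0.55, limma adjusted p = 0.0121), Egln3 by 2.29 (SE 0.65, limma adjusted p = 0.0239) and Hif1a by 1.85 (SE 0.45, limma adjusted p = 0.013). Ankrd37 was also called, against Sca-1- luminal libraries listed at 0 where Ufsp2 was high.

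Fibroblast, smooth muscle and endothelial transcripts moved with this comparison, all higher in Sca-1+ luminal replicates 1 and 2 than in replicate 3. Basal and secretory marker sums were also higher in replicates 1 and 2 than in replicate 3. Fibroblast markers had the sums of 5294, 2713 and 381 FPKM in Sca-1+ luminal and 98.5, 77.2 and 138 FPKM in Sca-1- luminal libraries, with none of the 8 markers at 0 throughout either group. With Sca-1+ luminal replicate 3 as the sole library of its gate, 3 of the 38 genes were higher (Ankrd37, Epas1 and Pfkl) and 2 lower (Pdk2 and Pfkm), a share of 13.2% against 16.6% of all genes tested, 10.6% higher and 5.98% lower. Pfkm was listed at 0 FPKM in replicate 3, which may be an estimate that failed. This fit assumes that the lone library varies like the others. In it Egln3 stood at 1.81 (limma adjusted p = 0.234), Hif1a at 1.48 (adjusted p = 0.164), Vegfa at 1.16 (adjusted p = 0.145) and Adm at 0.88 (adjusted p = 0.436), so these 4 calls were lost. Pfkp, at 2.03, missed the threshold narrowly (limma adjusted p = 0.0503). Pfkl kept 1.58 (limma adjusted p = 0.00688) and Pdk2 kept -1.47 (adjusted p = 0.0365). Without Sca-1+ luminal replicate 1 the count was 11 (28.9%, against 26.2% of all genes tested), and without replicate 2 it was 10 (26.3%, against 22.1%), both near the share of all genes. When Sca-1+ luminal replicate 3 was left out, so that replicates 1 and 2 remained, the count was 24 (63.2%, against 42.0%). Without Sca-1- luminal replicate 1 it was 13 (34.2%, against 24.8%), and without replicate 3 it was 12 (31.6%, against 21.9%). Pdk2, Pfkl, Epas1 and the uncertain Ankrd37 were called under every alternative run.

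**Figure D4:**
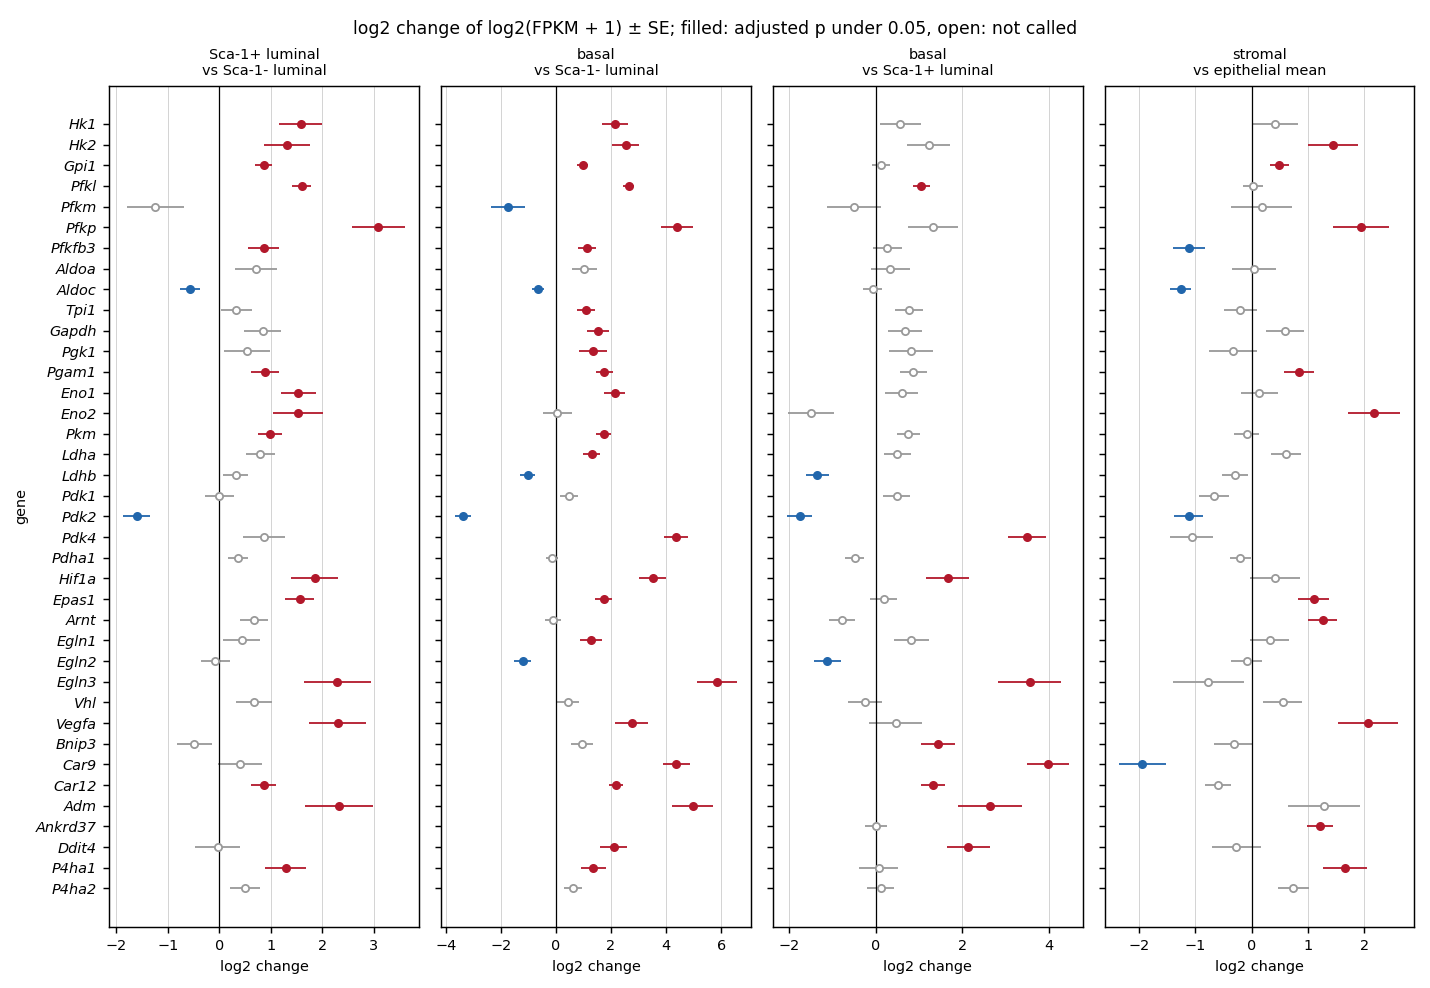
Each point is the log2 change of log2(FPKM + 1) of a gene in 1 of the 4 comparisons, with bars of 1 SE, filled where the limma adjusted p was under 0.05, red when higher and blue when lower in the group named first. Ankrd37 is left out of both panels against Sca-1- luminal libraries, where it was listed at 0, and the filled points in the panel of basal against Sca-1- luminal reach from -3.37 for Pdk2 to 5.84 for Egln3.

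Basal against Sca-1+ luminal libraries gave fewer calls. Of the 38 genes 9 were higher and 3 lower in basal libraries, where 19.7% of all genes tested were called, 4.37% higher and 15.3% lower. Both basal libraries lay above all 3 Sca-1+ luminal libraries for 19 genes (50%, against 14.8% of all genes tested) and below them for 6 (15.8%, against 38.7%). Of those 19, 10 were glycolytic enzymes, 5 were targets, 3 were HIF and oxygen-sensing genes and 1 was Pdk4. Among the targets 5 of 9 were higher (Bnip3, Car9, Car12, Adm, Ddit4), together with Egln3, Hif1a and Pdk4, and of the 18 glycolytic enzymes Pfkl was higher and Ldhb lower at the threshold. Pdk2 and Egln2 were the other lower genes. Whether the 2 lists differ from each other was not tested. The calls of Hif1a, Egln2 and Bnip3 were lost in 11, 9 and 6 of 19 alternative runs. Car9 changed by 3.97 (SE 0.48, limma, Benjamini-Hochberg adjusted p = 0.00109), Egln3 by 3.55 (SE 0.73, limma adjusted p = 0.00957) and Pdk4 by 3.49 (SE 0.44, limma adjusted p = 0.00125). Adm changed by 2.64 (SE 0.74, limma adjusted p = 0.0333), Ddit4 by 2.14 (SE 0.49, limma adjusted p = 0.016) and Pdk2 by -1.76 (SE 0.29, limma adjusted p = 0.00371). The median log2 change was 0.54 for the 38 genes, 0.59 for the enzymes and 1.32 for the targets, against -0.29 for all genes tested.

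With Sca-1+ luminal replicate 3 alone, 12 genes were higher and 2 lower in basal libraries, where 16.2% of all genes tested were called, 4.54% higher and 11.6% lower. Egln3 then stood at 4.03 (limma adjusted p = 0.032), Car9 at 4.88 (adjusted p = 0.000486) and Adm at 4.09 (adjusted p = 0.00957), while Hif1a was not called at 2.03 (adjusted p = 0.0896). The count dropped to 4 (10.5%) without either basal library, where 6.74% (replicate 1 left out) and 5.16% (replicate 2 left out) of all genes tested were called, with Egln3, Adm and Ddit4 lost each time, and Car9, Pdk4 and Pdk2 were called under every alternative run.

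Stromal libraries were compared with the mean of basal, Sca-1+ luminal and Sca-1- luminal group means, each weighted alike. Of the 38 genes 10 were higher and 4 lower in stroma, where 34.2% of all genes tested were called, 15.8% higher and 18.4% lower, and the share of members, 36.8%, was near that of all genes. Both stromal libraries lay above all 8 others for 5 genes (Hk2, Gpi1, Eno2, Arnt and P4ha1), 13.2% of the set against 9.19% of all genes tested, and below them for Aldoc, 2.63% against 11.5%. The 10 higher genes were Hk2, Gpi1, Pfkp, Pgam1, Eno2, Epas1, Arnt, Vegfa, P4ha1 and Ankrd37. The 4 lower ones were Pfkfb3, Aldoc, Pdk2 and Car9. Car9 in stroma, at 0.139 and 0.848 FPKM, overlapped both luminal groups, and basal libraries alone were far higher, at 36.5 and 38. Pdk2 in stroma, at 2.17 and 4.09 FPKM, lay below both luminal groups but above both basal libraries, at 1.88 and 1.46. Ankrd37, at a mean of 13.5 FPKM in stroma, was below its means of 14.3 FPKM in basal and 14.5 FPKM in Sca-1+ luminal libraries, so that its call rests on the zeros of Sca-1- luminal libraries. Eno2 changed by 2.18 (SE 0.46, limma, Benjamini-Hochberg adjusted p = 0.00695), Vegfa by 2.07 (SE 0.53, limma adjusted p = 0.0155) and Car9 by -1.94 (SE 0.42, limma adjusted p = 0.00748). Pfkp changed by 1.94 (SE 0.50, limma adjusted p = 0.0162), P4ha1 by 1.66 (SE 0.39, limma adjusted p = 0.0106) and Hk2 by 1.44 (SE 0.44, limma adjusted p = 0.0312). The epithelial mean joins basal and Sca-1- luminal levels that lie far apart for genes such as Egln3 and Pfkl, and it holds the fibroblast transcripts of Sca-1+ luminal replicates 1 and 2. The count dropped to 2 (5.26%, against 11.7% of all genes tested) without stromal replicate 1 and to 7 (18.4%, against 15.2%) without stromal replicate 2, and it was 15 with Sca-1+ luminal replicate 3 alone, where 42.5% of all genes tested were called. Aldoc alone was called under every alternative run.

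The direction of calls over all genes moved with the scaling of the libraries, that of the 38 genes less. Between Sca-1+ and Sca-1- luminal libraries, 62.1% of all calls were higher with FPKM as deposited, 40.4% with quantile normalization and 46.1% with median-of-ratios scaling, and for the 38 genes those shares were 90.0%, 82.4% and 86.7%. Between basal and Sca-1+ luminal libraries they were 22.2%, 53.1% and 46.1% for all genes, and 75.0%, 81.8% and 84.6% for the 38. In these 2 comparisons the all-gene median shifted by -0.26 and 0.37 (log2) under quantile normalization and by -0.17 and 0.25 under median-of-ratios scaling.

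Other genes of the same pathways were read from 2 lists, of 33 glycolysis and pyruvate genes and of 36 HIF pathway and target genes, 67 in all and 52 of them tested. Basal against Sca-1- luminal libraries gave 20 higher and 8 lower, 53.8% of the 52 against 46.2% of all genes tested. The largest increase with values above 0 on both sides belonged to Ndrg1, a stress-induced gene that HIF raises, with 338 and 396 FPKM in basal and 15.7, 19.7 and 4.55 FPKM in Sca-1- luminal libraries. Slc16a3, the exporter of lactate, stood at 24.8 and 49.3 FPKM in basal libraries and had 0 in the list of every Sca-1- luminal library and of Sca-1+ luminal replicate 3. These zeros may be estimates that failed, which was not tested, so they do not show that the transcript was absent. Lower in basal libraries were Fbp1, an enzyme of glucose synthesis that runs against phosphofructokinase, at 0.628 and 0.452 FPKM in basal and 19.8, 17.9 and 23.8 FPKM in Sca-1- luminal libraries, and Bpgm, an enzyme of a side branch of glycolysis known from red cells. Bpgm stood at 2.86 and 2.21 FPKM in basal and 15.3, 5.84 and 44.5 FPKM in Sca-1- luminal libraries, and its highest library was the one with the most erythroid transcripts, whose part in it was not tested. The log2 changes of Ndrg1, Fbp1 and Bpgm were 4.88, -3.80 and -2.29 (limma adjusted p = 0.000396, 1.19e-05 and 0.0187).

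In the other 3 comparisons Lox, an enzyme that crosslinks collagen, was among the largest changes of these lists. Between Sca-1+ and Sca-1- luminal libraries 19 were higher and 4 lower, 44.2% of the 52 against 35.2% of all genes tested, or 7 and 4 (21.2%, against 16.6%) with Sca-1+ luminal replicate 3 alone. Lox had 245, 84.5 and 6.14 FPKM in Sca-1+ luminal and 1.52, 0.334 and 1.66 FPKM in Sca-1- luminal libraries. Igfbp3, a carrier of insulin-like growth factors, had 217, 158 and 69.5 FPKM in Sca-1+ luminal and 5.88, 7.04 and 4.99 FPKM in Sca-1- luminal libraries. Both were highest in the replicates with the most fibroblast transcripts, and in stromal libraries Lox stood at 194 and 129 FPKM and Igfbp3 at 246 and 348 FPKM. Fbp1 and Cited2, a competitor of HIF for its coactivator, were the most decreased, at log2 changes of -1.98 and -1.57 (limma adjusted p = 0.00049 and 0.0133). Basal against Sca-1+ luminal libraries gave 3 higher and 5 lower, 15.4% against 19.7% of all genes tested, or 9 and 2 (21.2%, against 16.2%) with Sca-1+ luminal replicate 3 alone. Tfrc, the transferrin receptor, and Ero1l, an oxidase of protein folding, led the increases at 2.12 and 2.08 (limma adjusted p = 0.00141 and 0.0399). Lox and Igfbp3 led the decreases at -3.91 and -2.05 (limma adjusted p = 0.0391 and 0.0118). In basal libraries Lox stood at 2.34 and 2.76 FPKM and Igfbp3 at 24.5 and 40.5 FPKM. With Sca-1+ luminal replicate 3 alone, the lowest log2 change of any HIF pathway or target gene on the list was -1.12. Stromal libraries had 15 higher and 6 lower than the epithelial mean, 40.4% against 34.2% of all genes tested, or 20 and 7 (51.9%, against 42.5%) with that replicate alone. Lox and its relative Loxl2 rose most, at 4.44 and 3.74 (limma adjusted p = 0.00843 and 0.00131), whereas Edn1, the gene of the vessel-constricting peptide endothelin 1, and Fbp1 fell by 2.81 and 1.73 (limma adjusted p = 0.00323 and 0.000815).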

How the data were processed

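RNA of 10 sorted prostate libraries was measured by RNA-seq. Per the labels' protocols, cDNA was primed with random and poly(dT) primers (NuGEN Ovation RNA-Seq V2), built into libraries (TruSeq DNA kit) and read on a HiSeq. Strand is not stated, so a gene and an antisense or overlapping partner cannot be told apart. Per the submitters' processing notes, bcl2fastq 1.8.3, TopHat and Cufflinks were used with build mm10, with versions of the last 2 not given in the sources used here. The authors deposited FPKM for 63241 transcripts per library, per the file headers. The low FPKM values fell on steps of whole fragments for isolated transcripts, 88.6% to 92.2% within 0.1 of a whole number, which gave the depth. Only those transcripts allow it, so no count test was run.

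Transcripts were named by mm10 locus from GENCODE M21 and RefSeq GRCm38.p6, which named 54283 of them (85.8%). FPKM was summed per gene over transcripts of 300 nt or more, and 7 genes without an OK status were left out, none a member. limma 3.58.1 in R 4.3.3 was run on log2(FPKM + 1), with a mean per group over all 10 libraries, eBayes with trend, 6 residual degrees of freedom and Benjamini-Hochberg adjustment over 12483 genes. The pseudocount understates changes of low genes. The fit was tested on simulated data. Tables and figures used Python 3.11.15, pandas 2.3.3 and matplotlib 3.10.9.

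The members and lists were chosen with earlier results of these data known. By the rule for named genes, values in every library are given for members called in at least 1 comparison (33 of 38), statistics for the 6 largest called changes per comparison (plus Hif1a, Pdk2 and Ldha in basal against Sca-1- luminal libraries, added with values known), and from the other pathway lists the 2 largest called changes each way. Ankrd37 was among the 6 in both comparisons with Sca-1- luminal libraries, but its statistics are left out because of the listed zeros. Groups came from the gates in the labels, and libraries were numbered in listed order.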

Additional observations from a re-analysis of the deposited data

How the results depend on the processing

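No paired analysis was possible because the labels carry no replicate numbers. In 19 alternatives (pseudocount 0.1, no filter or a filter at 5 FPKM, quantile or median-of-ratios scaling, transcripts of every length or the highest transcript per gene, only the 2 groups compared, each library left out, Sca-1+ luminal replicate 3 alone), none of the 76 called values of the 38 genes reversed, and 25 were called in every alternative: 4 for Sca-1+ against Sca-1- luminal, 17 for basal against Sca-1- luminal, 3 for basal against Sca-1+ luminal and 1 for stromal against the epithelial mean. The last comparison uses all groups, so the alternative with 2 groups was not run for it, and Car12 and Aldoc gave no value under the filter at 5 FPKM. Leaving out each library gave 10 to 24 members (2738 to 5244 of all genes) for Sca-1+ against Sca-1- luminal, 19 to 30 (3792 to 6452) for basal against Sca-1- luminal, 4 to 13 (644 to 3592) for basal against Sca-1+ luminal and 2 to 15 (1464 to 4875) for stromal against the epithelial mean. A group of 2 has a single library in such a fit, which then has fewer samples. For Sca-1+ against Sca-1- luminal, the members called were 13 with no filter on low values, 12 with only the 2 groups compared and 5 (2067 of all genes) when replicate 3 stood alone for Sca-1+ luminal cells. The share of members called was 34.2% with no filter and 31.6% with only the 2 groups, against 52.6% in the main fit. The all-gene share fell in these runs too, to 19.6% (3812 genes) with no filter and 24.0% (3000 genes) with only the 2 groups. It was 35.2% (4396 genes) in the main fit. For basal against Sca-1+ luminal, all genes called were 1264 with only the 2 groups compared, a fit of fewer samples. For the other shifts the cause was not tested. Groups of 2 or 3 libraries limit the precision, and values under 1 FPKM, such as those of Car9 in stromal libraries, rest on few fragments.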
